A study of Mus musculus with 384 samples.

Results

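Low-marker wells were sorted meningeal wells with deep read counts that carried few genes of blood vessel endothelium. They were chosen by measured values: a well had at least 300000 counts and carried fewer than 3 of 9 blood endothelial genes (Flt1, Plvap, Vwf, Ly6c1, Sox17, Slc2a1, Emcn, Aplnr and Spock2). A well carried a gene where its level was at least 100 CPM (counts scaled to the well's total) and the well held at least 0.2% of the gene's counts on its plate. Of the wells on 4 plates of 96, 269 reached the depth, and 51 of these were low-marker wells and 218 other deep wells. The study asked, per its title, how ageing alters meningeal immunity and lymphatic drainage, and it sorted single living (DAPI-negative) cells of the brain meninges that lacked CD45 and stained for CD31, podoplanin and Lyve1. The labels call the cells of every well lymphatic endothelial. The aged wells came from 5 pooled male C57BL/6NCRL mice of 20 to 24 months and the young wells from 5 pooled male C57BL/6J mice of 2 to 3 months, and the effects of age and substrain cannot be told apart. Each age filled 2 plates of 96 wells, named S1 and S2, and S1 and S2 were read in separate sequencing runs. With 1 pool of mice per age there was 1 sample per age, wells are not replicates, and no comparison could be tested.

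Blood vessels of the meninges are lined by endothelial cells, which share junction and receptor genes such as Pecam1 (CD31) and Cdh5 (VE-cadherin) with lymphatic endothelium. Lymphatic endothelial cells are known for the transcription factor Prox1 and for Lyve1, podoplanin (Pdpn) and Flt4. Around these vessels lie mural cells (smooth muscle cells and pericytes), fibroblasts, resident macrophages and nerves wrapped by myelinating glia. Acta2, Rgs5, Dcn, Fcer1g and Lyz2 stand for mural cells (Acta2, Rgs5), fibroblasts (Dcn) and myeloid cells (Fcer1g, Lyz2).

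The low-marker wells held a median of 867987 counts (301298 to 7985189) and the other deep wells 1202054 (398600 to 6186128). All wells of a plate were pooled before amplification, so reads of 1 well can be counted under another. For genes with at least 1000 counts on a plate and over 80% of them in 1 well, the 95th percentile of a further well's share ran from 0.277% to 0.352% over the 4 plates, with a median of 0. That level lies above the 0.2% share that counts as carrying, so a single carried gene near the minimum cannot be told apart from such reads. A class was read from at least 3 carried genes of its list. Reads from a well rich in a class can bring several of its genes together, so this minimum does not remove the limit. The 4 plates share their 96 well positions, 8 positions held low-marker wells on 2 or more plates, and 1 position, D10, held a well with markers of a non-endothelial class on both S2 plates.

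Of the 51 low-marker wells, 36 still carried 3 or more of 16 pan-endothelial genes. Of these 36, 34 carried markers of no further class and 2 also carried lymphatic markers. Another 12 wells carried at least 3 genes of a mural, glial, macrophage or fibroblast list and fewer than 3 pan-endothelial genes, and 3 wells carried 3 genes of no class list. Under stricter rules pan-endothelial genes were carried by fewer of the wells, by 10 of 25 with fewer than 2 rule genes and by 3 of 14 with none. The plot of wells by plate shows the classes. Genes beyond the naming rule (given with the processing) were named after their values were seen.

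**Figure D1:**
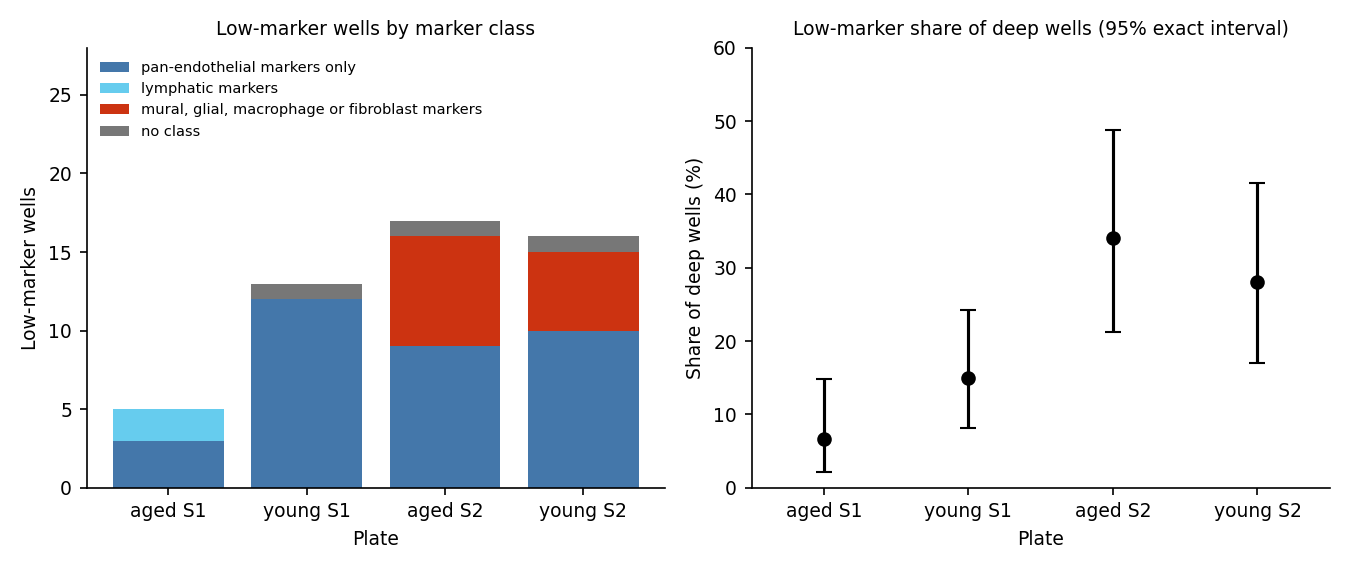
Left, number of low-marker wells on each plate, coloured by the class of markers they carried; right, low-marker wells as a percent of the deep wells of the plate, with 95% exact binomial intervals. The wells with mural, glial, macrophage or fibroblast markers (red) lie on the S2 plates, 7 aged and 5 young, and the share was 34% and 28.1% on the S2 plates against 6.67% and 14.9% on the S1 plates.

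The counts of rule genes that chose the wells are a description. The low-marker wells carried none of the 9 genes in 14 wells, 1 in 11 wells and 2 in 26 wells. Plvap, a protein of endothelial fenestrae (chr8:71497765-71511752, minus strand, mm10), and Vwf, the clotting factor stored in endothelial granules, were each carried by 18 of 51. Emcn was carried by 12, Flt1, a VEGF receptor, by 8 and Ly6c1 by 7. Sox17, Slc2a1, Aplnr and Spock2 were carried by 0 of 51 low-marker wells and by only 12, 18, 3 and 15 of the 218 other deep wells, so they separated few wells. The most frequent combinations were Plvap with Vwf in 7 wells and Plvap with Emcn in 6.

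The minimum share of plate counts decided most memberships. In 35 of the 51 low-marker wells, 3 or more of the 9 genes reached 100 CPM, but fewer than 3 of them also reached 0.2% of the plate. Of these 35, 26 carried pan-endothelial genes only, 1 was lymphatic, 5 held another class and 3 held none. At the border of the rule, the 26 wells with 2 rule genes carried a median of 5 pan-endothelial genes (3 to 9), and the 69 other deep wells with 3 rule genes carried a median of 7 (0 to 12). Their median counts were 758544 and 1111362, so the wells inside the border were also the shallower ones. Without a share minimum only 16 wells met the rule. Pan-endothelial markers, called without that minimum too, were carried by 9 of the 16.

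The 34 wells with pan-endothelial markers only carried 3 to 9 of the 16 genes, with a median of 5, against a median of 8 in the other deep wells, of which 214 of 218 carried 3 or more. Egfl7, an endothelial matrix protein, was carried by 23 of the 34 wells (67.6%) and by 87.6% of the other deep wells. Ptprb, the endothelial phosphatase that acts on VE-cadherin and Tie2, was carried by 22 of 34 and Eng, a TGF-beta co-receptor, by 20. Ramp2, the partner of the adrenomedullin receptor, was carried by 17. None of the 16 genes was carried by all 34 wells. The most pan-endothelial genes, 9, were carried by young S1 G9, young S1 H4 and young S2 B1.

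The rule genes spanned a wide range in these 34 wells, and since the rule chose wells that carried few of them, their lower medians are a description. Plvap ranged from 68.6 to 12433 CPM with a median of 2228 CPM, against a median of 3311 CPM in the other deep wells. Vwf had a median of 1761 CPM (42.6 to 17354), against 2889 CPM. Emcn and Flt1 had medians of 183.9 and 125.9 CPM in the 34 wells against 1642 and 870 CPM in the other deep wells. All ranges overlapped. Several of the 34 held 1 endothelial gene at a level above every other deep well. Flt4, a gene of the lymphatic list, reached 6601 CPM in aged S2 A10. Cldn5, the tight junction claudin, reached 4687 CPM in young S2 C8. Young S2 C8 was the only 1 of the 34 with no rule gene carried.

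**Figure D2:**
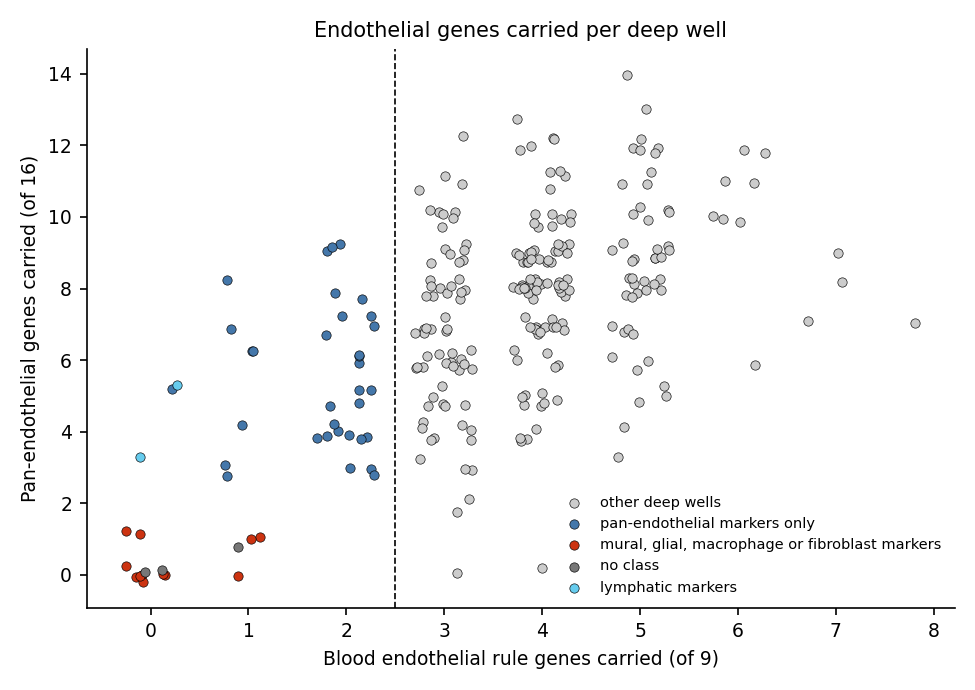
Each point is a deep well, placed by the number of rule genes it carried (x axis, of 9) and the number of pan-endothelial genes (y axis, of 16), with small random shifts so that points do not hide each other; wells left of the dashed line are the low-marker wells. Wells with another class (red) carried at most 1 pan-endothelial gene, while the blue wells carried 3 to 9.

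In the low-marker wells the RNA of the sorted proteins was sparse. Pecam1 was carried by 16 of 51 low-marker wells, all 16 among the wells with pan-endothelial markers only, and by 150 of 218 other deep wells. Pdpn was carried by 3 low-marker wells (aged S1 C3 at 1770 CPM, aged S1 C6 at 1507 CPM and young S2 D10 at 928 CPM) and by 0 of the 218 other deep wells, which allows a share of up to 1.38%. Lyve1 was carried by 2 low-marker wells (aged S1 C3 at 1579 CPM and young S2 E1 at 962 CPM) and by 37 other deep wells. Ptprc, which encodes CD45, was carried by 0 of 51, which allows a share of up to 5.88%. Of the 12 wells with another class, 0 carried Pecam1, 1 carried Pdpn and 1 carried Lyve1, and the remaining wells of the 12 carried none of the 3 genes. Protein was not measured in these tables.

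Lymphatic genes stood out in 2 wells of the aged S1 plate, C3 and C6. Mmrn1, a multimerin of lymphatic endothelium (chr6:60924976-60989378, plus strand), reached 12843 CPM in C3 and 6582 CPM in C6, which were 65.2% and 26.8% of its counts on the plate. Reln, a secreted glycoprotein, reached 2520 and 1848 CPM in the same order. Pdpn was at 1770 and 1507 CPM, so the 2 wells shared 3 high lymphatic genes. They differed in the rest: C3 held Lyve1 at 1579 CPM where C6 held 53.5 CPM, and C6 held Fxyd6 at 1374 CPM and the transcription factor Maf at 603 CPM where C3 held 1.48 CPM of Fxyd6 and 0 of Maf. Prox1 was not above 1.69 CPM, Ccl21a not above 25.8 CPM and Nts not above 2.72 CPM in any low-marker well. Flt4 was not among the 4 and 5 lymphatic genes that C3 and C6 carried.

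Both wells also carried pan-endothelial genes. C3 carried Egfl7 at 1572 CPM and Ptprb at 1353 CPM, together with Nr2f2, a vein and lymphatic transcription factor, at 2282 CPM. C6 carried Egfl7 at 2115 CPM, Cdh5 at 1918 CPM, Cldn5 at 1350 CPM, Robo4 at 963 CPM and Tek at 538 CPM. C3 was the broader well for other lists, with the mannose receptor Mrc1 at 1395 CPM and Lyz2, lysozyme, at 974 CPM. Of 10 lymphatic genes these wells carried 4 and 5, and none of the 218 other deep wells carried 3. Single genes of the list were more frequent, and 70 of the 218 carried at least 1. How few deep wells held the labelled cell type's markers thus depends on the minimum of 3 genes. Young S2 B10 also carried 3 genes of the lymphatic list (Fxyd6 870 CPM, Reln 640 CPM, Maf 107.6 CPM), but neither Mmrn1 nor Pdpn, and is described with the glial wells.

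The same 2 wells were the only low-marker wells with 3 or more of 12 type I interferon response genes. C3 carried 8, among them Isg15 at 2517 CPM, Xaf1 at 1732 CPM, Rtp4 at 1548 CPM and Ifit1 at 1542 CPM. C6 carried 4, with Ifit1 at 1828 CPM, Ifi44 at 1789 CPM and Bst2 at 1214 CPM. Such wells gathered on the plate of these 2: of the deep wells with 3 or more interferon genes, aged S1 held 27, young S1 held 3, and each S2 plate held 2. The part of the plate in the interferon genes of the lymphatic wells was not tested.

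Mural genes were carried at 3 or more of 16 by 5 low-marker wells, and by 3 of the 218 other deep wells. Acta2, smooth muscle actin (chr19:34241090-34255590, minus strand), was at 14634 CPM in aged S2 C1, 7184 CPM in aged S2 E11, 17446 CPM in aged S2 F10, 10436 CPM in aged S2 G1 and 11270 CPM in young S2 D7, against a median of 3.38 CPM in the other deep wells. All 5 wells were high. Myh11, smooth muscle myosin, separated them: it was at 40.8 CPM in C1, 5626 CPM in E11, 16976 CPM in F10, 9052 CPM in G1 and 462 CPM in D7. Tagln, an actin-binding protein of smooth muscle, was at 1475, 789, 9165, 4037 and 703 CPM in the same order. The 4 aged wells held contractile genes, and in E11, F10 and G1 Acta2, Myh11 and Tagln were high together.

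Young S2 D7 had a wider mural profile, with 8 of 16 genes carried. Besides Acta2 it held Rgs5, a pericyte regulator of G protein signalling, at 7046 CPM, Cnn1 at 3391 CPM, Vtn at 3361 CPM, the PDGF receptor Pdgfrb at 1786 CPM and the potassium channel subunit Kcnj8 at 1771 CPM. Rgs5 in the 4 aged wells lay between 7.11 and 112.6 CPM. D7 held 96.5% of the Rgs5 and 94.1% of the Acta2 counts of its plate. It also carried the fibrillar collagen genes Col3a1 (3429 CPM) and Col1a2 (544 CPM) and, among its 12 most abundant genes, Actg2 (8204 CPM) and Col14a1 (7329 CPM). Of the 5 mural wells, D7 alone carried Pdgfrb, and D7 and E11 carried Rgs5.

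Further contractile genes outside the list were abundant in the same wells. Myl9, the myosin light chain of smooth muscle, was carried by 8 low-marker wells, 0 of them with pan-endothelial markers only, and by 10 of 218 other deep wells. It reached 27239 CPM in G1, 13190 CPM in C1, 10052 CPM in F10 and 6264 CPM in E11. Crip1 was at 28950 CPM in F10 and 21612 CPM in G1, and Tpm2 at 8877 CPM in F10. F10 was the well with Notch3, the receptor known from mural cells, at 1737 CPM.

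**Figure D3:**
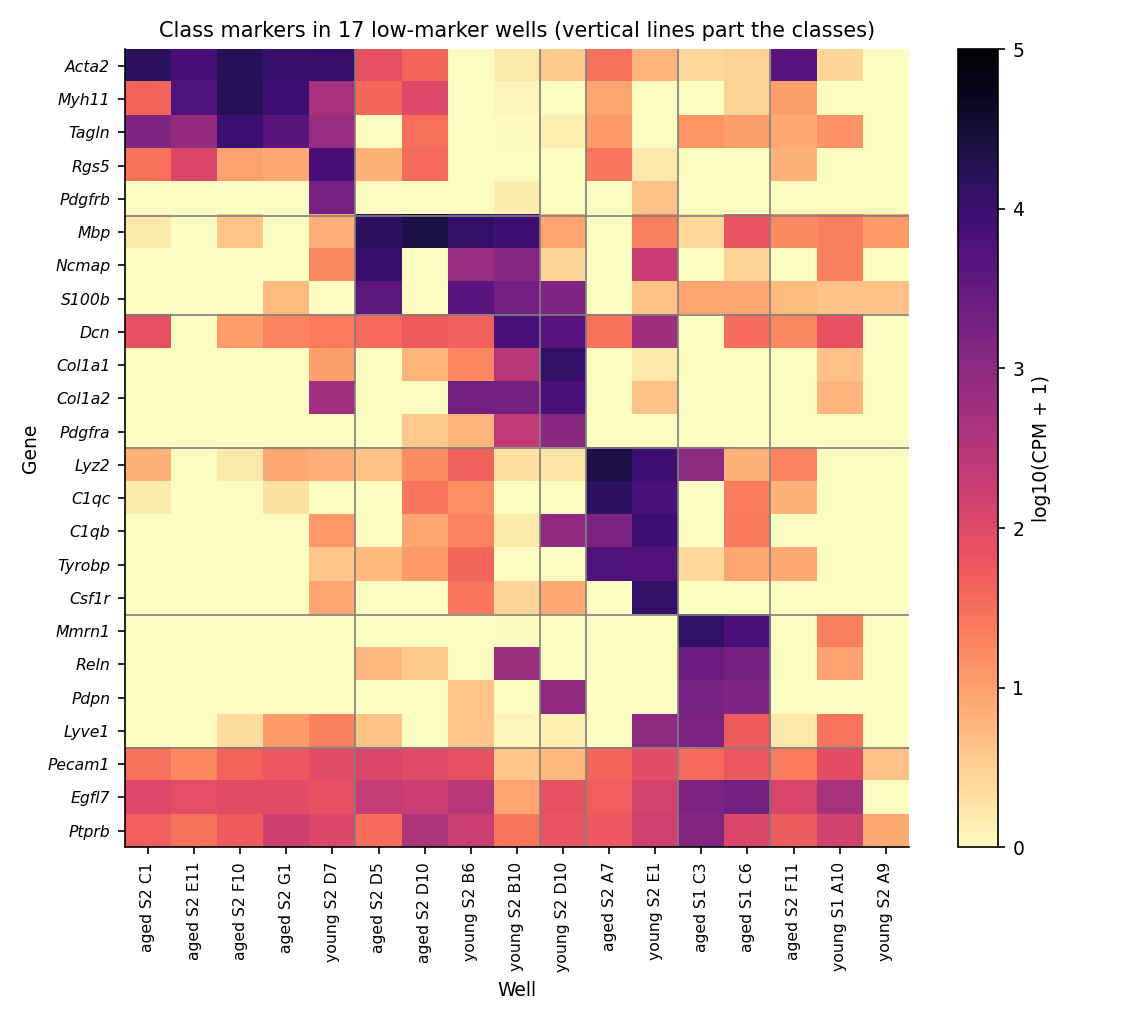
Colour gives log10(CPM + 1) of 24 genes (rows) in the 17 low-marker wells (columns) that carried more or other than pan-endothelial markers; from left to right 5 mural, 4 glial, 1 fibroblast, 2 macrophage, 2 lymphatic and 3 unclassed wells. Dark cells follow the classes with gaps: aged S2 D10 lacks Ncmap and S100b, and aged S2 A7 lacks Csf1r. Rgs5 is lower in the aged mural wells than in young S2 D7. Young S2 B10 is dark for both glial and fibroblast genes.

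Myelin genes filled 4 wells. Mbp, myelin basic protein, was at 14169 CPM in aged S2 D5, 24550 CPM in aged S2 D10, 12224 CPM in young S2 B6 and 9394 CPM in young S2 B10, against a median of 2.12 CPM and at most 1496 CPM in the other deep wells. All 4 wells lay above every other deep well. It was carried by 6 of 51 low-marker wells and by 3 of 218 other deep wells.

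The 4 wells held nearly all Mbp reads of their plates. D5 and D10 held 55% and 40.7% of the Mbp counts of the aged S2 plate, and B10 and B6 held 85.7% and 8.73% on young S2. Ncmap, a peripheral myelin membrane protein, was at 10216 CPM in D5, 1190 CPM in B10 and 696 CPM in B6 and at 0 in aged S2 D10. S100b was carried by D5, B6 and B10 and was at 0 in aged S2 D10. Sox10, a transcription factor of myelinating and other glia, was carried by B10 alone, at 295 CPM. The astrocyte water channel Aqp4 was at most 1.54 CPM and the oligodendrocyte gene Mog at 0 in every low-marker well. D5 further held Pmp22, a peripheral myelin protein, at 38800 CPM and Cnp at 9319 CPM.

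Young S2 B10 was the deepest of the 51 wells, with 7985189 counts, 8229 genes with a count and 1897 genes carried. It was the only low-marker well with 3 or more genes of more than 1 class besides pan-endothelial. With 6 glial genes it carried 7 of 14 fibroblast genes, Apod at 7390 CPM, Dcn at 6792 CPM, Mfap5 at 2270 CPM, Col1a2 at 1973 CPM, Col1a1 at 291 CPM, Pdgfra at 227 CPM and Islr at 223 CPM. Whether B10 held more than 1 cell was not tested. Without B10 there were 3 glial wells and 1 fibroblast well.

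That other fibroblast well, young S2 D10, had 7 fibroblast genes and no glial class. Col1a1, the main chain of type I collagen (chr11:94936224-94953042, plus strand), was at 12185 CPM, Col1a2 at 6359 CPM and the matrix proteoglycan Dcn at 4527 CPM. Pdgfra, the PDGF receptor of fibroblasts, was at 1089 CPM, Col3a1 at 784 CPM, Slc47a1 at 553 CPM and Fbln1 at 307 CPM. D10 held 90.4% of the Col1a1 counts of its plate. Its most abundant coding genes were Mgp (35313 CPM) and Gpx3 (30700 CPM), and it held the tendon-type genes Tnmd at 4070 CPM and Fmod at 3897 CPM. It carried Pdpn too, at 928 CPM, which was 97.2% of the Pdpn counts of its plate.

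Dcn alone did not mark fibroblast wells. It was carried by 11 of 51 low-marker wells (21.6%) and by 44 of 218 other deep wells (20.2%), while Pdgfra was carried by 2 and 0. Fcer1g, the common gamma chain of Fc receptors, behaved likewise, carried by 5 low-marker wells (9.80%) and 21 other deep wells (9.63%). Lyz2 was carried by 3 and 1, and Acta2 by 7 and 12. Rgs5 was carried by 2 low-marker and 4 other deep wells.

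Macrophage genes marked 2 wells. Aged S2 A7 carried 8 of 16 genes, with Lyz2 (chr10:117277331-117282321, minus strand) at 23310 CPM, the complement gene C1qc at 14644 CPM, Adgre1 (F4/80) at 6004 CPM, the signalling adaptor Tyrobp at 5784 CPM, Fcer1g at 5192 CPM and the scavenger receptor Cd163 at 1644 CPM. Young S2 E1 carried 13, with the CSF1 receptor Csf1r at 11561 CPM, Lyz2 at 9566 CPM, C1qb at 9332 CPM, Mrc1 at 7000 CPM, C1qc at 6394 CPM, Tyrobp at 5291 CPM and Fcer1g at 4313 CPM. Each well held over 90% of its plate's Lyz2 (96.3% and 91.2%). They shared complement and lysozyme genes and some receptors, with C5ar1, the complement C5a receptor, at 3542 CPM in A7 and 1027 CPM in E1. Other receptors were high in 1 of the 2 wells, since A7 held 0 CPM of Csf1r and Mrc1 and E1 held 0 CPM of Cd163 and 1.95 CPM of Adgre1.

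MHC class II, the antigen-presenting complex, set the 2 macrophage wells further apart. A7 carried 4 of 7 genes of the list, H2-Aa at 19653 CPM, Cd74 at 14949 CPM, H2-Ab1 at 12171 CPM and H2-Eb1 at 5959 CPM, and it was the only low-marker well with 3 or more. E1 instead held Lyve1 at 962 CPM, Maf at 4004 CPM and Cd4 at 2382 CPM, and Apoe (28352 CPM) was its most abundant gene. Maf was high in A7 too, at 5937 CPM. Lyve1 RNA in a low-marker well therefore came with macrophage genes in young S2 E1. In aged S1 C3 it came with lymphatic genes and with 2 genes of the macrophage list, Mrc1 and Lyz2.

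In 3 wells no list reached 3 genes. Aged S2 F11 (1431205 counts) carried 2 mural genes, Acta2 at 4106 CPM and Ndufa4l2 at 2501 CPM, with Myl9 at 8698 CPM and Tpm2 at 8139 CPM among its most abundant genes. Young S1 A10 (614852 counts) stood apart by its mitochondrial share, 53.3%, where the median over low-marker wells was 5.11%. Its Ttr, transthyretin of the choroid plexus, was at 25857 CPM, and it was the only deep well to carry Pifo (1158 CPM) and Spag6l (1708 CPM), genes of cilia. It held 1 carried gene of the choroid and ependymal list, so it stays unnamed. Young S2 A9 was the shallowest, with 301298 counts and 986 genes with a count, and held Ramp2 at 15918 CPM and Lrg1 at 8882 CPM.

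No low-marker well carried 3 or more genes of the neuronal, arachnoid or epithelial, choroid or ependymal, T or NK, B, dendritic, neutrophil, mast, platelet, erythroid, bone or cartilage, skeletal muscle or melanocyte lists. A count of 0 of 51 allows a share of up to 5.88%. Single genes of these lists were carried: Ttr in 6 wells, Stmn2 in 4, Hba-a1 in 2, and Cd4, Nrgn, Alpl and Zbtb46 in 1 each. Arachnoid or epithelial, B, neutrophil, mast, platelet, skeletal muscle and melanocyte genes were carried by 0 wells. Among the 218 other deep wells, 8 carried 3 or more genes of a non-endothelial class, 3 mural, 2 macrophage, 2 glial and 1 fibroblast. Summed over a list, the highest level in an other deep well was 3092 CPM for glial, 7245 CPM for macrophage, 6744 CPM for fibroblast and 19713 CPM for mural genes, and in a low-marker well 109819, 65036, 25806 and 45338 CPM. The ranges of the mural wells overlapped: Rgs5 reached 8171 CPM in an other deep well, above the 7046 CPM of young S2 D7.

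The most abundant RNAs were ranked by mean CPM over the 51 wells, which is not divided by gene length. Malat1, a nuclear long noncoding RNA, came first with a median of 49215 CPM (3362 to 217314), against 22973 CPM (5553 to 129219) in the other deep wells. The mitochondrial ribosomal RNA mt-Rnr2 followed, with medians of 26097 and 27194 CPM. Tmsb4x, an actin-binding peptide, had medians of 15998 and 19206 CPM. Malat1 was the top gene in 28 low-marker wells, mt-Rnr2 in 16, Tmsb4x in 5 and Apoe in 2. Mgp, Fth1, Apoe, Ly6e, B2m, Rps14, Rpl32, Itm2b and the mitochondrial genes mt-Rnr1, mt-Cytb, mt-Nd1, mt-Nd4, mt-Nd2, mt-Nd6 and mt-Nd5 were among those that followed in the ranking.

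Tmsb4x and Ly6e, an endothelial and interferon-inducible surface protein, had low medians in the wells with another class, 4824 and 298 CPM. The wells with pan-endothelial markers only had medians of 18253 and 6120 CPM. The medians of Mgp followed the same order, 962 against 6922 CPM. Single wells with another class were high, up to 23795 CPM of Tmsb4x, 7058 CPM of Ly6e and 35313 CPM of Mgp. All 12 wells with another class lie on S2, while 15 of the 34 wells with pan-endothelial markers only lie on S1. The part of the plate in these medians was not tested.

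Malat1 differed between the S1 and S2 plates. On the S1 plates, the wells with pan-endothelial markers only held a median of 1.7% of counts in Malat1 and the other deep wells 1.81%. On the S2 plates the medians were 6.55% and 5.21%, and 7.89% (2.01% to 21.7%) in the wells with another class, all of which lie on S2. Of the 51 low-marker wells, 33 lie on S2, so the Malat1 level over all of them moves with the plate; the part of the plate in it was not tested further. Within S2 the 3 sets of wells overlapped.

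Among the sets of wells compared on S2, ribosomal protein genes had their lowest median share in the wells with another class. The unclassed wells are left out of these sets, with 2.34% in aged S2 F11, 3.09% in young S1 A10 and 14.15% in young S2 A9. The share in the wells with another class was 3.95% of counts (3.22% to 6.17%). It was 7.76% (4.09% to 10.8%) in the S2 wells with pan-endothelial markers only and 8.57% (4.09% to 16.2%) in the other deep wells on S2. The 50 most abundant genes held a median of 46.1% of counts in the wells with another class, 34.8% and 31.7% in the other sets on S2. Mitochondrial genes had medians of 5.37%, 5.19% and 4.47%, and the highest of the 12 was young S2 B6 at 19.9%. The wells with another class carried a median of 400 genes, against 473 and 704.

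**Figure D4:**
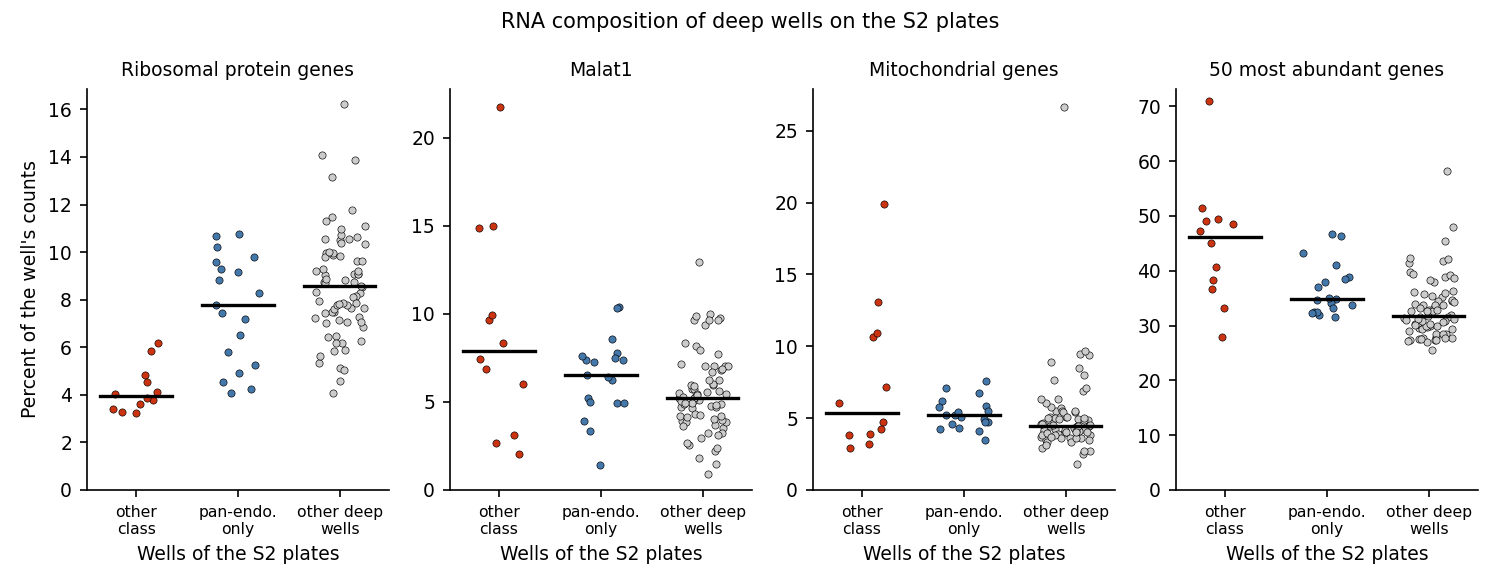
Percent of each well's counts in 98 ribosomal protein genes, Malat1, 37 mitochondrial genes and the 50 most abundant genes, for deep wells of the S2 plates; points are wells and black lines medians. Ribosomal protein shares of the wells with another class lie between 3.22% and 6.17%. They lie partly below the lowest other deep well (4.09%) and otherwise at the lower end of those wells.

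Gene groups of cell state were read as the share of wells that carried at least 3 genes of a list. Of 12 immediate early genes, 3 or more were carried by 8 of 51 low-marker wells (15.7%) and by 50% of other deep wells, with Jun in 19 wells, Junb in 12, Dusp1 in 11 and Fos in 7. Of 9 heat shock genes, 3 or more were carried by 12 wells (23.5%) and by 52.3%, with Hspa8 in 33 and Hsp90ab1 in 24. MHC class I genes were carried at 3 or more in 41.2% and 77.1%, with B2m in 35 wells and H2-D1 in 31. The low-marker wells also carried fewer genes of any kind, a median of 493 against 904. With every deep well thinned to 300000 counts, these medians were 530 and 914 genes. The shares were then 17.6% and 50.9% for immediate early, 25.5% and 53.2% for heat shock and 47.1% and 78% for MHC class I genes. The gaps were thus about as wide at equal depth. Thinning also changed each well's share of the plate counts, on which the calls of carried genes rest. The median of the low-marker wells rose from 493 to 530 genes although they held fewer reads. The part of depth alone was therefore not tested. The low-marker wells were chosen for few carried rule genes and are spread unevenly over the plates. The part of either in these gaps was not tested.

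Vessel subtype lists were read in the same way. At least 3 of 8 venous genes were carried by 2 low-marker wells (3.92%) and 32.6% of other deep wells. Lrg1, a glycoprotein of venous endothelium, was carried by 22 of 51 and Nr2f2 by 18. Of the brain capillary list, Bsg was carried by 20 wells and Itm2a by 12, and 2 wells carried 3 or more, against 9.17%. Of the arterial list 0 wells carried 3, with Bmx in 2 wells and Gja4, Dll4 and Unc5b in 1 each. Unfolded protein response genes reached 3 in 2 wells (3.92%) and 12.4%, with Hspa5 in 15, and the p53 list in 0 wells and 5.50%, with Phlda3 in 9. At equal depth the venous shares were 3.92% and 33.9% and the capillary shares 3.92% and 9.17%, with the same limit of thinning. Of the cell cycle list only Cdk1 was carried, in 1 well.

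Across 7438 genes carried by at least 5 deep wells, 369 (4.96%) were carried by a share of low-marker wells at least 2-fold that of the other deep wells, and 3170 (42.6%) the other way. The rule used this contrast and the number of genes carried differs, so nothing is read from the counts. The 12 genes with the largest surplus were Map1b, mt-Tp, Fxyd1, Mt1, Gpx3, Myl9, Serpine2, Col1a2, Mbp, Ncmap, Smchd1 and S100b. Map1b, a microtubule-associated protein of neurons and glia, was carried by 12 of 51 low-marker wells and 11 of 218 other deep wells. Fxyd1 (8 and 4 wells), Mt1 (9 and 11) and Gpx3 (7 and 3) followed. Of the 34 wells with pan-endothelial markers only, 3 carried Map1b, 2 Fxyd1, 1 Mt1, 4 Gpx3 and 0 Myl9. By contrast 11 of the 34 carried mt-Tp and 7 carried Smchd1, shares of 32.4% and 20.6% against 29.4% and 17.6% over all low-marker wells.

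The 12 genes with the largest deficit were the rule genes Plvap, Emcn, Flt1 and Vwf and then Rpl4, Laptm4a, H3f3b, Chchd2, Oaz1, Il6st, Rps25 and Tspo, most of which are expressed in nearly every cell type. Rpl4, a ribosomal protein, was carried by 23.5% of low-marker and 75.7% of other deep wells, and H3f3b, a histone, by 39.2% and 83.9%. When only the 34 wells with pan-endothelial markers were set against the other deep wells, 322 of 7281 genes (4.42%) were carried at least 2-fold more often and 3257 (44.7%) at least 2-fold less often.

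Both ages contributed low-marker wells. The 22 aged ones were 17.6% of aged deep wells (exact 95% interval 11.4% to 25.4%) and the 29 young ones 20.1% of young deep wells (13.9% to 27.6%), intervals that cover counting error only. The plates of 1 age differed more than the ages: aged S1 had 5 of 75 (6.67%, 2.2% to 14.9%) and aged S2 17 of 50 (34%, 21.2% to 48.8%), and young S1 had 13 of 87 (14.9%, 8.2% to 24.2%) and young S2 16 of 57 (28.1%, 17% to 41.5%). Within S1 the aged share was below the young share and within S2 above it, with overlapping intervals in both. Without aged S1 the aged share was 34%, and without aged S2 it was 6.67%.

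By class, the aged wells held 4 mural, 2 glial and 1 macrophage well, and the young wells 1 mural, 2 glial, 1 macrophage and 2 fibroblast wells, with B10 counted under both glial and fibroblast. The wells with another class were 14% of deep wells on aged S2, 8.77% on young S2 and 0 on the S1 plates. Both lymphatic wells were aged and both lay on S1. Wells with pan-endothelial markers only numbered 12 aged and 22 young, of which 12 lay on young S1. At these numbers, with 1 pool per age and the classes tied to the plates, age and plate cannot be told apart for any class.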

How the data were processed

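Per the labels' protocols, single sorted cells were lysed in 96-well plates, a well barcode was put on the oligo-dT primer, wells were pooled before amplification, and no molecular identifier is described. The authors deposited 4 tables of raw read counts (40324 gene symbols, 1 column per well); the submitters' processing notes name mm10, featureCounts 1.4.6-p5, Subread and STAR 2.5.1a. Of the annotation release, strand and multimapping settings nothing is stated in the labels. CPM used all counts of a well. The members and gene lists were chosen with earlier results of these data known. Named genes were the rule genes, the sort genes, the genes of each list carried by most wells, the most abundant genes and the 12 largest differences in carrying, and any gene beyond these was named after its values were seen. A few genes that the naming rule picks are not reported here. The calls of carried genes were also run on simulated data. That run does not show the calls to be free of reads from other wells, whose measured share could exceed the minimum share of plate counts. No doublet caller was run. Coordinates are those of GENCODE vM21 (GRCm38), matched by symbol for 40160 genes; 164 had no unique match. Analysis used Python 3.11.15, numpy 2.4.6, pandas 2.3.3, scipy 1.17.1 and matplotlib 3.10.9. PCR reads are not independent molecules. The intervals are on numbers of wells, taken as independent draws although each age is 1 pool, and cover counting error only. In differences of carrying, 27 of 369 and 102 of 3170 genes had clone-like symbols and were not named. Alternatives were other depth, CPM, share and marker minimums, thinning to 300000 counts, mitochondrial genes left out of the total, and plates left out.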

Additional observations from a re-analysis of the deposited data

Results flagged for a closer look

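Class markers also appeared in wells that the report does not describe because they held under 300000 counts. Of these, 1 carried 3 mural genes, aged S2 G5 with 88094 counts, where Rgs5, Des and Ndufa4l2 were carried. Another 3 carried 3 or more glial genes: young S2 E5 (91821 counts) carried Mbp and Sox10 among them, young S2 F2 (85505 counts) S100b and Mbp, and aged S1 A10 (64530 counts) Mbp and Ncmap. A further 3 carried 3 or more macrophage genes, all on young S2, the plate of well E1: H2 and H4 (108948 and 108430 counts) carried the same 11 genes and E2 (69160 counts) carried 3. In the macrophage wells the summed level of the list was 6379 CPM in H2, 9914 CPM in H4 and 2617 CPM in E2. The part of reads from E1 in these shallow wells was not tested.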

How the results depend on the processing

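Of the alternative values computed for 24 results, 324 stayed near the main value (a count within 1.5 times, a share within its exact 95% interval, any other value within 1 SD over the wells) and 43 moved. Since wells vary widely, 4 values within 1 SD still changed by over 1.5 times: with no rule gene, mean Tmsb4x was 7285 CPM, mean mt-Rnr1 17711 CPM and the median ribosomal share 4.34%, and without plate aged S2 mean Malat1 was 31756 CPM. Without a share minimum, 16 wells met the rule (5.95% of deep wells, 8% of aged and 4.17% of young), of which 9 carried 3 or more pan-endothelial genes, 3 mural and 1 glial genes, and 909 genes were carried more often. With a minimum of 0.5%, 85 wells did (31.6%, aged 30.4%, young 32.6%), 62 of them with pan-endothelial genes. Both share settings applied to the class genes too. With fewer than 2 rule genes there were 25 wells (9.29%, aged 11.2%, young 7.64%), 10 with pan-endothelial genes and a median of 1 of them carried. With no rule gene there were 14 (5.20%, aged 6.4%, young 4.17%), 3 pan-endothelial with a median of 0, 3 mural and 1 macrophage. Asking for 2 genes per class gave 19 wells with another class, 6 fibroblast and 4 macrophage. Without plate aged S2 there were 5 wells with another class, 2 glial, 1 mural and 1 macrophage, and the aged share was 6.67%. Without young S2 there were 7, 2 glial, 1 macrophage and 0 fibroblast. Without aged S1 there was 1 lymphatic well and the aged share was 34%, and without young S1 the young share was 28.1%. Without well young S2 B10, an alternative chosen after seeing the data, 1 fibroblast well remained. Depth minimums of 200000 and 500000 counts, 50 and 200 CPM, thinning and leaving mitochondrial genes out moved no value past these limits. No paired analysis was possible because each age is 1 pool and no result comes from a test. Under thinning, 9 of the 51 wells carried 3 or more rule genes. Small numbers of wells, 1 pool per age and PCR reads without molecular identifiers limit every value.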
